A study of Mus musculus with 4 samples.

Results

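Serpins are a superfamily of proteins that share one fold, and most of them inhibit proteases. The 60 genes described here were taken from the 32285 listed genes as those whose symbol is Serpin followed by a clade letter from a to i, a number and an optional letter, with the complement regulator Serping1 left out. The largest clades were b with 27 genes and a with 24. Most of the genes lie in clusters: 23 on chromosome 12, 16 on chromosome 13 and 11 of the 13 on chromosome 1. They were followed in single-cell RNA libraries from the digits of wild-type FVB/NJ mice, 8 weeks old, at the level of the middle phalanx (P2). One library came from the unamputated, homeostatic digit and 1 each from fibrosing tissue 12, 17 and 28 days after a mid-digital amputation of P2 (days post-amputation, dpa), an injury that the submitters describe as non-regenerative. Each library was labelled as pooled males and females, and the number of animals was not given in the sources used here. With 1 library per group the differences below have no replicate check, no test across animals was possible, and all intervals cover counting error only.

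An inhibitory serpin presents a reactive centre loop that a protease cleaves, after which serpin and protease are locked in a covalent complex and cleared by scavenger receptors. Secreted serpins restrain clotting, plasmin formation and matrix breakdown, and the clade B serpins mostly stay inside the cell, where they guard epithelial cells and leukocytes against their own or leaked proteases. A few members do not inhibit proteases at all, such as the collagen chaperone Serpinh1 and the secreted factor Serpinf1.

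Levels are unique molecular identifiers (UMIs, each standing for 1 captured RNA molecule) summed over the cells of a class and scaled to a class total of 10 to the power of 6 UMIs (CPM), with exact Poisson 95% intervals. Ratios to the unamputated library are log2 values after adding 1 CPM, with exact conditional 95% intervals. A gene was called past 2-fold when its log2 ratio was at least 1 in size, and it was compared only where the higher library had at least 10 CPM and 20 UMIs and both libraries had at least 100 cells of the class. Levels were not compared between genes, since 3′ end capture differs from gene to gene. Inside single clusters, ratios are given where both libraries had at least 50 cells. Classes were named from marker genes, and a class name stands for cells that resemble that type.

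The libraries held 10420 (unamputated), 6453 (12 dpa), 7962 (17 dpa) and 10252 (28 dpa) kept cells, with median depths of 6691 to 11646.5 UMIs per cell. The 12 dpa library stood apart: Xist was at 456 CPM and 4 Y-linked genes together at 0.231 CPM there, against 0.0625 to 0.165 CPM and 244 to 351 CPM in the others. Its cells therefore carried female RNA and those of the other libraries male RNA, against their label, so at 12 dpa sex and time cannot be told apart. Pairs of libraries shared 12 to 45 kept cell barcodes. The mix of cells also differed, with 200 B-like cells in the unamputated and 0 in the 12 dpa library, and 236 osteoblast-like cells against 23.

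The serpin genes ranged from uncounted to widely expressed. Over all barcodes, 7 of the 60 genes had no UMI, 20 had 1 to 99 UMIs and 33 had at least 100. In all, 15 of them reached 50 CPM with at least 50 UMIs in some class. They were the epidermal clade B genes Serpinb5, Serpinb12, Serpinb3b, Serpinb7 and Serpinb2, the more widely or leukocyte-expressed clade B genes Serpinb8, Serpinb6a, Serpinb1a, Serpinb6b and Serpinb9, and the secreted or secretory-pathway genes Serpinh1, Serpinf1, Serpina3n, Serpine2 and Serpini1. Of these 15 genes, 8 had their highest level in the same class in all 4 libraries. For the others the top class moved between libraries, as for Serpine2, which was highest in pericyte-like cells in the unamputated and 12 dpa libraries and in osteoblast-like cells at 17 and 28 dpa. Of the named clade B genes, 5 of the 6 on chromosome 1 were highest on average in a keratinocyte class, the exception being Serpinb8 in macrophage-like cells, and 0 of the 4 on chromosome 13 were.

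**Figure D1:**
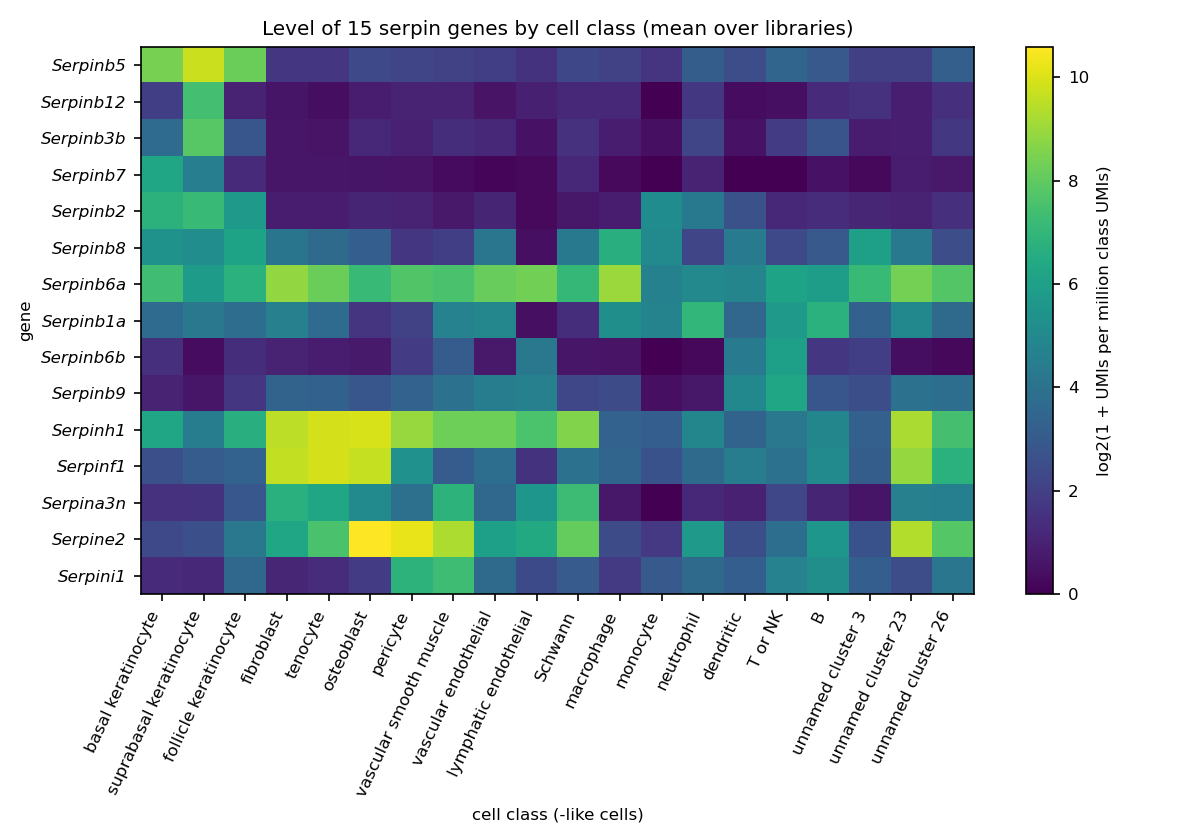
Level of the 15 serpin genes named in the text (rows) in each cell class (columns), as log2 of 1 plus CPM, averaged over the libraries with at least 50 cells of the class. The top rows (Serpinb5, Serpinb12, Serpinb3b, Serpinb7) are bright in keratinocyte classes, while Serpinh1 and Serpinf1 are brightest in fibroblast-, tenocyte- and osteoblast-like cells.

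The clearest difference in the epidermis was that of Serpinb7, known as megsin, a clade B serpin (chr1:107399655-107452689, GRCm38, plus strand) whose human counterpart is mutated in a thickening disorder of palm and sole skin. In basal keratinocyte-like cells, the Krt5 and Krt14 cells that attach to the basement membrane, Serpinb7 was at 93.7 CPM (88.2 to 99.3, 1110 UMIs) in the unamputated library and 9.66 CPM (6.93 to 13.1, 41 UMIs) at 12 dpa. It was at 74.1 CPM (66.3 to 82.5) at 17 dpa and 129 CPM (121 to 137) at 28 dpa. The 12 dpa library was thus the low one, with a log2 ratio of -3.15 (-3.76 to -2.83), and the ratios at 17 and 28 dpa were -0.33 and 0.46. Both clusters of the class showed the same order. In cluster 12 (429 unamputated and 209 12 dpa cells) Serpinb7 was at 112, 9.77, 92.5 and 160.0 CPM in the unamputated, 12, 17 and 28 dpa libraries, and in the cycling cluster 22 (151 and 71 cells) it was at 58.2, 9.42, 49.2 and 92.3 CPM. After thinning each cell to 2000 UMIs, 12.7% of unamputated and 3.25% of 12 dpa basal cells had a Serpinb7 UMI (44.8% and 8.57% unthinned). In macrophage-like cells, which should lack the gene, the unthinned share was at most 0.385% in any library, at median depths of 7308 to 10593 UMIs against 10141.5 to 18817 UMIs in basal cells. In suprabasal keratinocyte-like cells Serpinb7 was at 14.6, 3.09, 26.5 and 43.2 CPM, so 12 dpa was again the lowest and 28 dpa the highest library, with a log2 ratio of -1.93 (-3.33 to -1.32, from 10 UMIs) at 12 dpa and one between 1.26 and 1.86 at 28 dpa.

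Serpinb3b and Serpinb2 were also lowest at 12 dpa. Serpinb3b is one of the mouse relatives of the squamous cell carcinoma antigens, inhibitors of cysteine and serine proteases. In suprabasal cells it was at 252 CPM (243 to 262), 96.1 (85.7 to 107), 233 (216 to 250) and 327 (313 to 342) in the unamputated, 12, 17 and 28 dpa libraries. Its log2 ratio was -1.38 (-1.57 to -1.22) at 12 dpa, while those at 17 and 28 dpa were -0.12 and 0.37. Serpinb2, an inhibitor of urokinase that is mostly kept inside the cell, was at 173 CPM (165 to 181), 74.5 (65.4 to 84.5), 165 (151 to 180) and 160 (150 to 170) in the same class. The 12 dpa value lay below those of the other 3 libraries, with a log2 ratio of -1.20 (-1.41 to -1.02), although 1 cell held 182 of the 1712 unamputated UMIs. The ratio was under 2-fold with each cell named alone (-0.82) and as a mean over cells (-0.95). In basal cells Serpinb2 was at 134, 76.3, 109 and 129 CPM, again lowest at 12 dpa but short of 2-fold there, at a log2 ratio of -0.80. The 2 basal clusters differed: in cluster 12 Serpinb2 went from 167 to 77.8 CPM at 12 dpa (-1.09), while the cycling cluster 22 was at 69.1, 73.1, 68.2 and 116 CPM in the 4 libraries. In the annotation Serpinb3b overlaps Serpinb3c on the same strand, and Serpinb2 overlaps Serpinb10, so their counts are uncertain.

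The difference did not extend to the other named genes of the group. Serpinb5, known as maspin, a non-inhibitory serpin of epithelia, was at 840 CPM (822 to 859), 736 (707 to 766), 830 (798 to 863) and 992 (967 to 1017) in suprabasal cells. All 4 libraries lay close together, with log2 ratios between -0.19 and 0.24. Serpinb12 was at 156, 164, 167 and 188 CPM in suprabasal cells, with log2 ratios of 0.07, 0.10 and 0.26 and intervals that overlapped from 1 library to the next. These 5 genes span chr1:106861173-107535478 (GRCm38), in the order Serpinb5, Serpinb12, Serpinb3b, Serpinb7 and Serpinb2, so genes with a low and with an even 12 dpa level lie in 1 cluster.

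**Figure D2:**
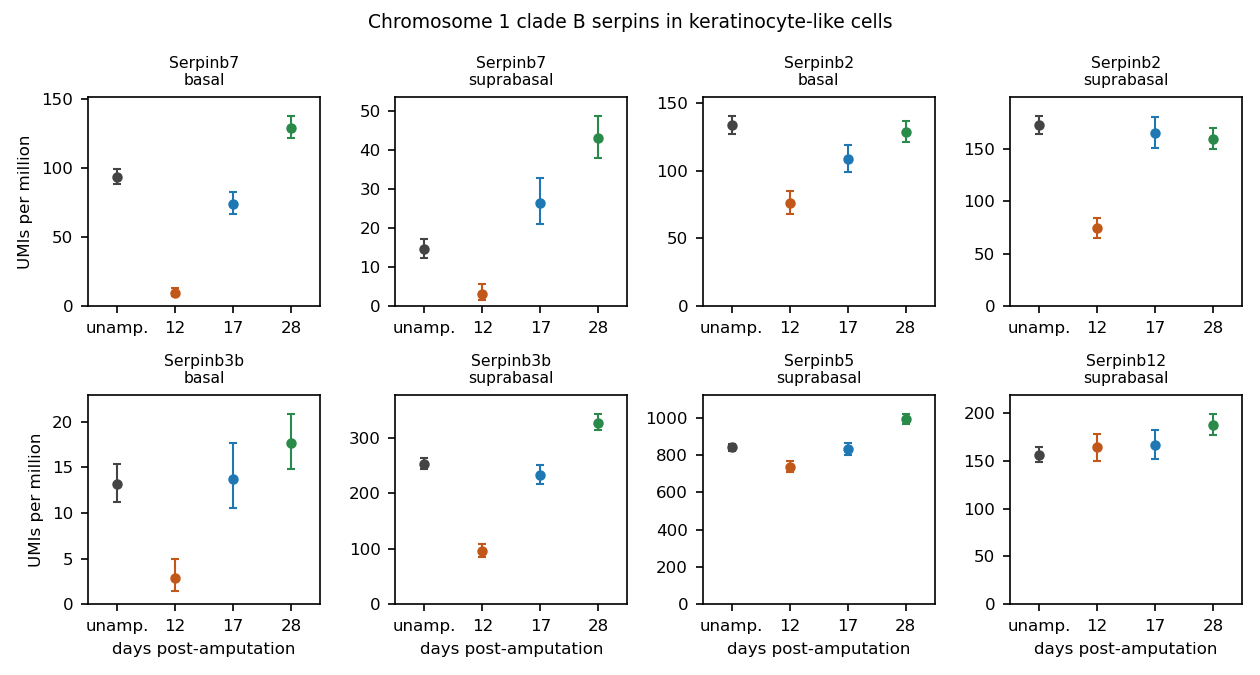
Levels of the chromosome 1 clade B serpins in basal and suprabasal keratinocyte-like cells, in CPM, by library (unamputated, 12, 17 and 28 dpa), each point 1 library with its exact Poisson 95% interval. Serpinb7, Serpinb3b and Serpinb2 are lowest at 12 dpa, where Serpinb7 is at 9.66 CPM in basal cells, while the log2 ratios of Serpinb5 and Serpinb12 in suprabasal cells lie between -0.19 and 0.26.

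Counted over the family, 2 of the 8 serpins compared in basal cells were past 2-fold at 12 dpa (Serpinb3b and Serpinb7, both lower), against 2.53% of all genes compared. The median log2 ratio of the 8 was -0.34, beside -0.11 for all genes. At 17 and at 28 dpa the count was 0 of 8, where 1.64% and 3.76% of all genes were past 2-fold. In suprabasal cells 6 of 12 serpins were past 2-fold at 12 dpa, against 3.33% of all genes. Serpinb3a, Serpinb3b, Serpinb7 and Serpinb2 were lower, and Serpinh1 and Serpinf1, described further on, were higher. At 17 dpa 2 of 11 were past 2-fold (Serpinb3a and Serpinb3c, both lower), against 2.36% of all genes. At 28 dpa 2 of 11 were (Serpinb3a lower, Serpinb7 higher), against 4.9%. Serpinb3a was thus lower at every time. Follicle keratinocyte-like cells had 1 of 7 (Serpinb13, lower), 1 of 9 (Serpinb1a, higher) and 1 of 10 (Serpinf1, higher) serpins past 2-fold at 12, 17 and 28 dpa, where 6.13%, 4.08% and 5.84% of all genes were. Among 21 epidermal proteases and their other inhibitors, 11 were compared in basal cells at 12 dpa, where Csta1 was higher and Klk10, Klk11 and Spink5 lower, with a median log2 ratio of -0.03. In suprabasal cells 15 of the protease list were compared, and at 12 dpa Csta1 was higher and Klk6, Spink5 and Slpi lower. At 17 dpa Klk5, Klk6, Klk7 and Cst6 were higher and Klk10 and Slpi lower, and at 28 dpa 0 were higher and 6 lower (Klk6, Klk7, Klk10, Csta1, Stfa3 and Slpi). Cst6, a cysteine protease inhibitor, was at 554, 903, 4635 and 439 CPM in suprabasal cells, highest at 17 dpa. A list of 14 dissociation-response genes, which includes Fos and Jun, moved with these libraries: 8, 3 and 5 of the 14 were past 2-fold lower in basal cells at 12, 17 and 28 dpa, with medians of -1.05, -0.56 and -0.71. The part of this response in the serpin differences was not tested.

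The 250 bases before the start of Serpinb7, Serpinb2 and Serpinb3b, the 3 named genes with the low 12 dpa level, are shown. This is because Fos and Jun proteins form AP-1, a factor whose site (TGANTCA) is known in keratinocyte promoters. The starts are those of RefSeq, and for Serpinb7 and Serpinb3b they lie inside the longer gene span of the GENCODE annotation. The sequences are from RefSeq (GRCm38.p6), 5′ to 3′ on the strand of the gene and ending at the base before the start. Capitals mark matches on either strand to TGANTCA and to the TATA box letters TATAAA.
Serpinb7, chr1:107422439-107422688, plus strand: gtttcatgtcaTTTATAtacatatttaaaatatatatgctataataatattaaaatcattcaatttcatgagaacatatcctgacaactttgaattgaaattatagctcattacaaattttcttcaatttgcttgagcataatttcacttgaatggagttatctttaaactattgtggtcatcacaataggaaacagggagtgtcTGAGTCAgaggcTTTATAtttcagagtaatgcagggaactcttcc
Serpinb2, chr1:107511173-107511422, plus strand: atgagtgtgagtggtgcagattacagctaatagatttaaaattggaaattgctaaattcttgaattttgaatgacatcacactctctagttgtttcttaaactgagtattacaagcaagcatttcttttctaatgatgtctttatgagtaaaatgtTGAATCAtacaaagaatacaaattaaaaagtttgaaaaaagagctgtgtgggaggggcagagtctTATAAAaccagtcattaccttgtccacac
Serpinb3b, chr1:107161115-107161364, minus strand: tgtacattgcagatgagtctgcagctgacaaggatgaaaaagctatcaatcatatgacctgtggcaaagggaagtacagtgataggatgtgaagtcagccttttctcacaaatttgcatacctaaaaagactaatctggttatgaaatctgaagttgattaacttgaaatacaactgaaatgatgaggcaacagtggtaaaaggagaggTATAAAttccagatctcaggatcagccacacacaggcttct
The Serpinb7 window held an AP-1 match 45 bases before the start and TATA matches 33 and 239 bases before it. Serpinb2 held an AP-1 match 94 and a TATA match 29 bases before the start, and its second RefSeq start, further downstream, had the matches 181 and 116 bases before it. Serpinb3b held a TATA match 41 bases before the start and no letters TGANTCA. Serpinb3a, not among the named genes and lower in suprabasal cells at every time, held a TATA match 65 bases before the start and no letters TGANTCA. The even genes also held AP-1 letters, Serpinb5 140 and Serpinb12 45 bases before the start, while the second RefSeq start of Serpinb12 had none, so the letters stood before genes with and without the low 12 dpa level. Of the 60 serpin genes 53 had an entry in the table, with 62 promoters, of which 11 held an AP-1 match and 17 a TATA match. By gene these were 10 and 14. The AP-1 matches include the similar windows of the paralogues Serpina1a, Serpina1b, Serpina1c and Serpina1d, so they are not independent of each other. Over all 32851 promoters of this length, 6.75% held the AP-1 letters and 12.4% the TATA letters. A match describes the letters and shows no binding.

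Among the serpins of plasminogen activation, Serpine2 was a gene of bone, vessel-wall and connective tissue classes. Serpine2 (chr1:79794197-79861180, minus strand), protease nexin 1, is a cell-associated inhibitor of thrombin, urokinase and plasmin. In osteoblast-like cells it was at 982 CPM (956 to 1009) in the unamputated library, 1979 (1942 to 2017) at 17 dpa and 1651 (1603 to 1701) at 28 dpa, higher in both fibrosing libraries, with log2 ratios of 1.01 (0.96 to 1.06) and 0.75 (0.69 to 0.81). Keeping doublets brought the 17 dpa ratio under 2-fold, to 0.79. In pericyte-like cells, where it was at 1354, 1330, 1070 and 1003 CPM, the 17 and 28 dpa libraries were lower, with log2 ratios of -0.34 and -0.43. The largest difference at 28 dpa was in tenocyte-like cells: 120 CPM (115 to 125), 66.7 (63.6 to 69.9), 239 (229 to 248) and 325 (310 to 340), or log2 ratios of -0.84, 0.99 and 1.43. That class held 2 clusters in changing proportion, cluster 2 (Scx and Tnmd cells; 473, 1343 and 264 cells in the unamputated, 12 and 17 dpa libraries) and cluster 16 (Chad and Comp cells; 282, 55 and 462 cells). In cluster 2 Serpine2 was at 91.1, 65.2, 92.6 and 286 CPM, and in cluster 16 at 197, 118, 395 and 445 CPM, so 28 dpa was the highest library in both, while 17 dpa was higher than unamputated by 1.00 in cluster 16 and by 0.02 in cluster 2. In vascular endothelial-like cells Serpine2 was lower in level, at 40.1, 57.6, 67.0 and 85.8 CPM, and its log2 ratio at 28 dpa was 1.08 (0.88 to 1.30). That ratio fell under 2-fold with doublets kept (0.59), with a looser filter on cells (0.97) and in male cells alone (0.99). Summed pericyte markers in those endothelial cells were at 32.0, 28.9, 45.0 and 136 CPM, and the part of pericyte RNA in the Serpine2 value was not tested.

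The dissociation-response genes moved in osteoblast-like cells too. There 7 of 14 were past 2-fold higher at 17 dpa and 9 at 28 dpa, with medians of 1.01 and 1.36 beside -0.14 and -0.28 for all genes, and Fos was at 337, 1006 and 1183 CPM in the unamputated, 17 and 28 dpa libraries. Their part in the Serpine2 differences was not tested. Of the 15 genes listed for plasminogen activation and for the clearance of serpin complexes, 11 were compared in fibroblast-like cells: 0 were higher and 2 lower at 12 dpa (Plau and Vldlr), 0 higher and 1 lower at 17 dpa (F2r), and 2 higher and 1 lower at 28 dpa (Thbd and S100a10 against F2r), where 3.09%, 2.92% and 10.7% of all genes were past 2-fold. S100a10, a subunit of a plasminogen receptor, was at 1077, 1150, 1440 and 2605 CPM in fibroblast-like cells, highest at 28 dpa, and the clearance receptor gene Lrp1 was at 405, 376, 575 and 551 CPM. In vascular endothelial-like cells 0 of 8, 0 of 8 and 1 of 10 (Lrp1, higher) were past 2-fold, against 1.33%, 1.22% and 4.17% of all genes. Osteoblast-like cells had 0 of 9 at 17 dpa and 2 of 10 at 28 dpa (F3 higher, Plaur lower), against 5.7% and 11.9%. Tenocyte-like cells had 0 of 10, 0 of 11 and 2 of 11 (F3 and Thbd, both higher), against 4.08%, 1.91% and 7.37%.

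Counted over the family, osteoblast-like cells had 2 of 6 serpins past 2-fold at 17 dpa (Serpine2 higher, Serpinb9 lower) and 1 of 7 at 28 dpa (Serpinb8, higher), where 5.7% and 11.9% of all genes were. Vascular smooth muscle-like cells had 0 of 6, 0 of 7 and 2 of 9 (Serpinf1 and Serpinb6b, both higher), against 4.53%, 2.25% and 6.83% of all genes. Pericyte-like cells had 0 of 7 at each time, against 2.92%, 1.13% and 4.28%. Vascular endothelial-like cells had 0 of 9, 1 of 9 (Serpina1b) and 3 of 10 (Serpine2, Serpinf1 and Serpina3n) at 12, 17 and 28 dpa, against 1.33%, 1.22% and 4.17%, and lymphatic endothelial-like cells had 0 of 6 at 12 dpa, against 3.05%. In the vascular endothelial-like cells fibroblast markers summed to 226, 1023, 705 and 899 CPM in the 4 libraries, and Serpinf1 was at 6.87, 14.2, 13.1 and 18.1 CPM and Serpina3n at 8.45, 4.65, 9.99 and 19.5 CPM. The part of fibroblast RNA in these values was not tested. All these counts rest on 10 serpins or fewer, so that 1 gene moves a share by much more than the background.

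Serpini1, neuroserpin, an inhibitor of the tissue plasminogen activator known from neurons, was highest in the vessel wall. In vascular smooth muscle-like cells it was at 175 CPM (163 to 187), 160 (134 to 189), 156 (141 to 172) and 135 (122 to 149), with log2 ratios of -0.13, -0.16 and -0.37. Its level in pericyte-like cells was 136, 86.3, 142 and 97.5 CPM, lower at 12 and 28 dpa than in the other libraries. Serpini1 overlaps another annotated gene, Gm37672, on the same strand, so its counts are uncertain. Serpina3n, a secreted inhibitor of serine proteases of the antichymotrypsin group that is induced in inflammation, was highest on average in Schwann-like cells. At 28 dpa several classes lay close together. Fibroblast- and tenocyte-like cells were at 129 CPM, vascular smooth muscle-like cells at 128 and Schwann-like cells at 121 CPM. In vascular smooth muscle-like cells Serpina3n was at 95.8, 96.6, 141 and 128 CPM in the 4 libraries. In Schwann-like cells it was at 166 CPM (152 to 180), 141 (123 to 159), 181 (154 to 211.8) and 121 (97.8 to 147), a range within 2-fold. In tenocyte-like cells it was at 47.8, 49.4, 67.5 and 129 CPM, with a log2 ratio of 1.41 (1.29 to 1.58) at 28 dpa, and 28 dpa was the highest library in cluster 2 (111 CPM) and in cluster 16 (185 CPM). In fibroblast-like cells it was at 122, 60.8, 108 and 129 CPM, lowest at 12 dpa (-0.99). That class is a mix: cluster 8 (C4b and Gdf10 cells), where Serpina3n was at 289, 219 and 427 CPM in the unamputated, 17 and 28 dpa libraries, had 26 cells at 12 dpa and 292 in the unamputated library. Within cluster 0 (Clec3b and Pcolce2 cells) the 12 dpa library was the highest, at 86.8 CPM against 45.3, 38.2 and 58.6 CPM in the unamputated, 17 and 28 dpa libraries. In cluster 17 (Prss35 and Crabp1 cells), which gave most fibroblast-like cells at 12 dpa, it went from 57.7 CPM in the unamputated library to 37.9 CPM (-0.59). The 12 dpa difference thus had opposite directions in clusters 0 and 17.

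Of the connective tissue genes, Serpinh1 was lower and Serpinf1 higher at 28 than at 12 dpa in the whole fibroblast- and tenocyte-like classes. Serpinh1 (chr7:99345376-99353239, minus strand) encodes the collagen chaperone of the endoplasmic reticulum, which holds the procollagen triple helix until export. In fibroblast-like cells it was at 737 CPM (725 to 750), 896 (877 to 916), 733 (721 to 745) and 605 (595 to 615), highest at 12 dpa and lowest at 28 dpa, with log2 ratios of 0.28, -0.01 and -0.29. In tenocyte-like cells it was at 1024, 1348, 858 and 630 CPM, ordered alike, with log2 ratios of 0.40, -0.25 and -0.70. Osteoblast-like cells had 1031 CPM, 1032 and 859 CPM in the unamputated, 17 and 28 dpa libraries, lowest at 28 dpa (-0.26). None of these was past 2-fold. Inside the classes, Serpinh1 in cluster 2 of the tenocyte-like cells was at 1197, 1367, 1035 and 663 CPM and in cluster 0 of the fibroblast-like cells at 719, 881, 706 and 614 CPM, the same order as in the whole class. Other clusters differed at 17 dpa: in fibroblast cluster 8 it was at 627, 767 and 569 CPM in the unamputated, 17 and 28 dpa libraries, and in tenocyte cluster 16 at 556, 690.4, 668 and 528 CPM in the 4 libraries, so 17 dpa was above the unamputated level in both. Of 17 listed partners of Serpinh1 in collagen folding, the fibrillar collagens included, 16 were compared in fibroblast-like cells. There 0 were past 2-fold at 12 and 17 dpa and 2 were lower at 28 dpa (Col1a1 and Col5a1), with medians of -0.01, -0.05 and -0.41 beside -0.03, -0.05 and -0.13 for all genes. The 2 of 16 at 28 dpa stand beside 10.7% of all genes. Col1a1 itself was at 18778, 20618, 13473 and 6988 CPM in fibroblast-like cells. Of the 14 dissociation-response genes, 5 were past 2-fold lower at 12 dpa in fibroblast-like and 5 in tenocyte-like cells. Their medians were -0.85 and -0.88, and 3.09% and 4.08% of all genes were past 2-fold. At 17 and at 28 dpa 1 was higher in fibroblast-like cells and 0 were past 2-fold in tenocyte-like cells. The part of this response in the serpin values was not tested.

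Serpinf1 (chr11:75409769-75422701, minus strand) encodes pigment epithelium-derived factor, a secreted non-inhibitory serpin that restrains vessel growth, binds collagen and is needed for normal bone mineral. It was at 566 CPM (554 to 577), 629 (613 to 646), 914 (900 to 927) and 1020 (1007 to 1034) in fibroblast-like cells, higher in each fibrosing library than in the unamputated one, with log2 ratios of 0.15 (0.11 to 0.20), 0.69 (0.66 to 0.73) and 0.85 (0.82 to 0.89). In tenocyte-like cells it was at 695, 907, 935 and 1264 CPM (0.38, 0.43 and 0.86), and in osteoblast-like cells at 566, 762 and 1124 CPM in the unamputated, 17 and 28 dpa libraries (0.43 and 0.99). No class of connective tissue reached 2-fold, and in all 3 classes 28 dpa was the highest library. The fibroblast clusters differed at 12 dpa. Cluster 0 was at 526, 874, 705 and 894 CPM, so 12 and 28 dpa lay close together there. Cluster 8 was at 724, 1272 and 1561 CPM in the unamputated, 17 and 28 dpa libraries, and its 28 dpa ratio was 1.11. Cluster 17, which gave 455 of the 704 fibroblast-like cells at 12 dpa and 23 of the 2176 at 28 dpa, was at 454, 472 and 416 CPM in the unamputated, 12 and 17 dpa libraries. Over all kept cells Serpinf1 was at 191, 409, 413 and 430 CPM, past 2-fold at every time, a larger ratio than in any single connective tissue class at the same time. The class that held most of its UMIs changed, since tenocyte-like cells held 47.7% of them in the unamputated and 77.4% in the 12 dpa library, and fibroblast-like cells 66.5% at 28 dpa.

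**Figure D3:**
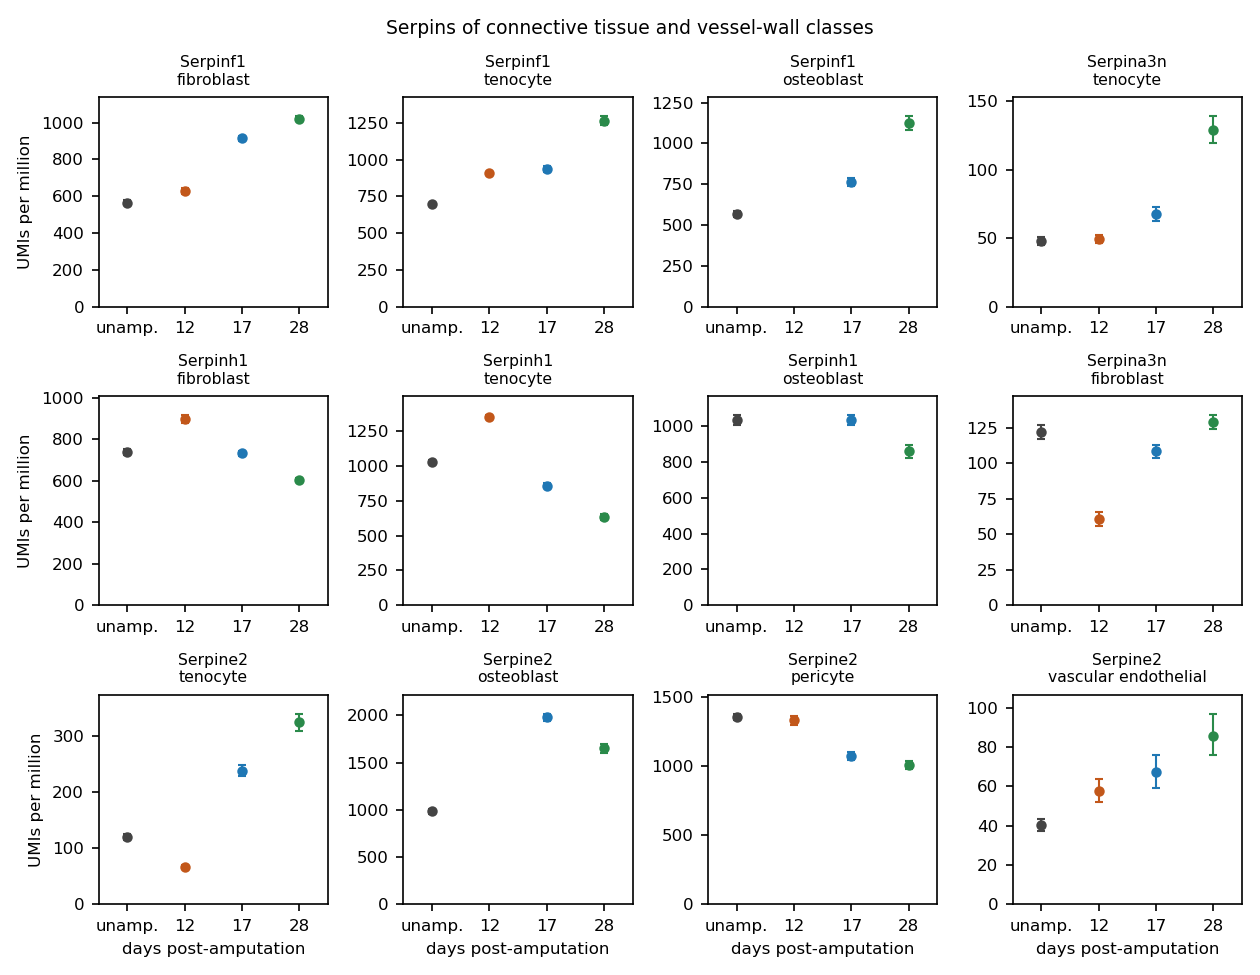
Levels of Serpinf1, Serpinh1, Serpine2 and Serpina3n in the classes described, in CPM, by library, each point 1 library with its exact Poisson 95% interval; osteoblast-like cells have no 12 dpa point, with 23 cells there. Serpinf1 is highest and Serpinh1 lowest at 28 dpa in fibroblast-, tenocyte- and osteoblast-like cells.

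Over the whole family 0 of 8 serpins were past 2-fold in fibroblast-like cells at each time, where 3.09%, 2.92% and 10.7% of all genes were. The median log2 ratios of the 8 genes were -0.45, -0.03 and -0.05, beside -0.03, -0.05 and -0.13 for all genes. In tenocyte-like cells the counts were 0 of 6, 0 of 6 and 2 of 8 (Serpine2 and Serpina3n at 28 dpa), against 4.08%, 1.91% and 7.37%, and in Schwann-like cells they were 0 of 6, 0 of 5 and 0 of 6, against 2.45%, 8.49% and 9.15%. Over all kept cells, where the mix of classes enters, the counts were 3 of 12 (Serpinb3b and Serpinb2 lower, Serpinf1 higher), 1 of 12 and 1 of 13 (both Serpinf1, higher), against 3.31%, 3.13% and 7.77%.

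Among leukocytes, the libraries differed in the clusters they held, and values are given by class and by cluster. Serpinb1a (chr13:32842092-32851185, minus strand), one of the mouse counterparts of the leukocyte elastase inhibitor, shields neutrophils from elastase, cathepsin G and proteinase 3. In neutrophil-like cells it was at 258 CPM (244 to 272, 1339 UMIs), 0 CPM (0 UMIs), 236 CPM (214 to 259, 443 UMIs) and 14.6 CPM (3.97 to 37.3, 4 UMIs). The unamputated and 17 dpa libraries were high and the 12 and 28 dpa libraries low. Against a floor of 3 UMIs in the library, 5.70 CPM, which is the one-sided 95% limit of a count of 0, the 12 dpa level was at least 45.2-fold lower, and the log2 ratio at 28 dpa was -4.05 (-6.02 to -2.78). Cluster 19, led by the granule genes Camp, Ngp and Ltf of immature neutrophils, held 521 unamputated and 220 17 dpa cells and none at 12 or 28 dpa, and it carried 1338 of the 1339 unamputated Serpinb1a UMIs. Within it Serpinb1a was at 346 CPM (328 to 365) and 328 CPM (298 to 360) in the unamputated and 17 dpa libraries. In cluster 13, the neutrophil-like cells present in every library, it was at 0.752, 0, 7.40 and 14.6 CPM from 1, 0, 4 and 4 UMIs. Within cluster 13 the 28 dpa level was thus not below the unamputated one. The granule protease genes that Serpinb1a guards against were also at or near 0 at 12 and 28 dpa: Elane was at 136, 0, 299 and 0 CPM and Prtn3 at 90.4, 1.90, 161 and 0 CPM in neutrophil-like cells.

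In macrophage-like cells Serpinb1a was at 10.0 CPM (8.05 to 12.3), 3.72 (2.12 to 6.03), 44.8 (40.7 to 49.3) and 90.0 (85.2 to 95.1), low in the unamputated and 12 dpa libraries and high at 17 and 28 dpa, with log2 ratios of -1.22, 2.06 (1.83 to 2.51) and 3.05 (2.86 to 3.49). Cluster 1 (Lyve1, Folr2 and F13a1 cells) had 178, 52, 639 and 1693 cells in the unamputated, 12, 17 and 28 dpa libraries, while cluster 10 (Ms4a7 and Apoe cells) had 609, 408, 266 and 81 cells. Serpinb1a was at 35.6, 27.3, 61.0 and 93.5 CPM in cluster 1 and at 2.48, 1.36, 3.41 and 17.0 CPM in cluster 10. The 28 dpa library was the highest in both, and the ratio in cluster 1 alone was 1.37 (1.05 to 1.76), against 3.05 for the class. At 17 dpa the ratio was 0.76 in cluster 1 and 0.34 in cluster 10, under 2-fold in both. At 12 dpa it was -0.37 (-1.45 to 0.54) in cluster 1, from 52 cells and 11 UMIs, and -0.56 in cluster 10. In cluster 10 the unamputated, 12 and 17 dpa levels were all under 10 CPM, the minimum for a comparison, so those ratios are uncertain. The class ratio of -1.22 was under 2-fold in size with a looser filter on cells (-0.66) and with doublets kept (-0.69). It was also under 2-fold with each cell named alone (-0.86) and a pseudocount of 5 CPM (-0.79).

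Serpinb6a, a widely expressed intracellular serpin known to inhibit cathepsin G, was highest on average in macrophage-like cells, at 368 CPM (356 to 381), 388 (369 to 407), 582 (567 to 598) and 689 (675 to 702). The 17 and 28 dpa libraries were higher, with log2 ratios of 0.66 and 0.90. Within cluster 1 it was at 539, 690, 689 and 709 CPM and within cluster 10 at 318, 370, 340 and 385 CPM, so that ratios inside a cluster were between 0.10 and 0.40. Serpinb6a overlaps Ripk1, Nqo2 and 1110046J04Rik on the opposite strand, and whether the counting used strand is not given in the sources used here. Serpinb8, which is known to inhibit furin, was at 102 CPM (95.5 to 109), 52.7 (46.1 to 60.0), 109 (103 to 116) and 128 (122 to 134) in macrophage-like cells, lowest at 12 dpa, with a log2 ratio of -0.94 (-1.17 to -0.74), short of 2-fold. The 12 dpa library was also the lowest in cluster 1 (79.4 against 152 CPM unamputated) and in cluster 10 (51.5 against 87.3 CPM). The 17 and 28 dpa libraries, above the unamputated one in the class, were below it in both clusters, at 119 and 128 CPM in cluster 1 and 69.8 and 69.6 CPM in cluster 10.

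**Figure D4:**
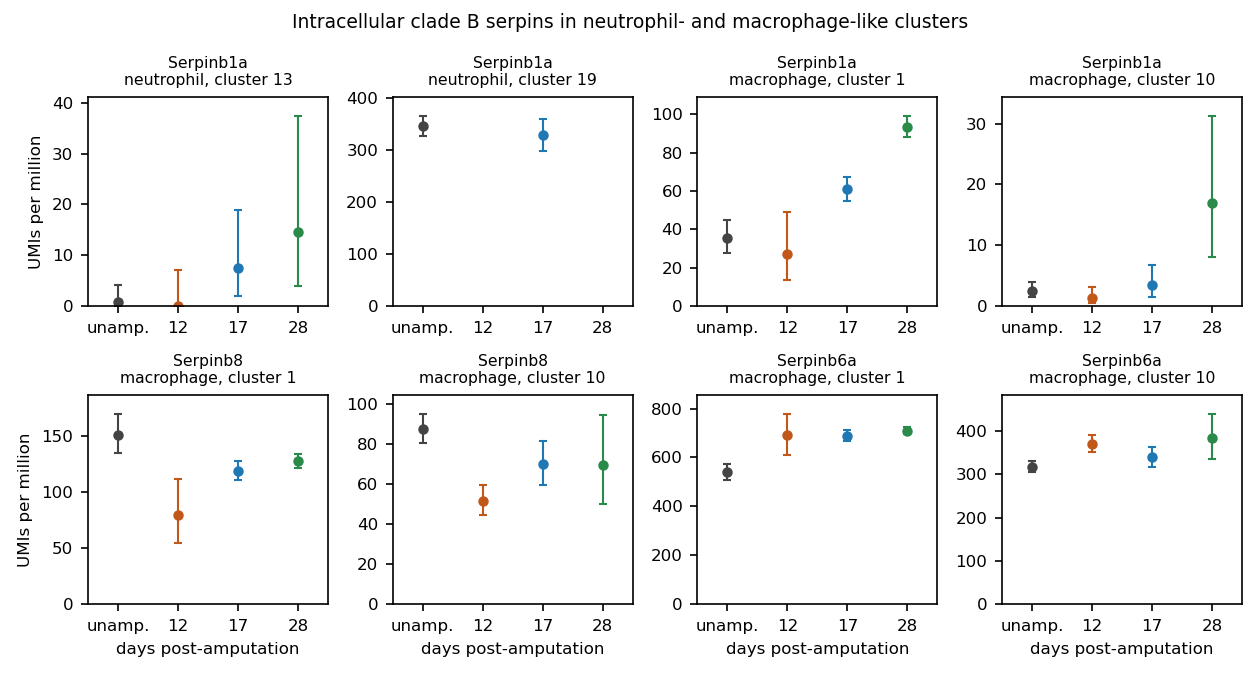
Levels of Serpinb1a, Serpinb8 and Serpinb6a in single clusters of neutrophil-like (13, 19) and macrophage-like (1, 10) cells, in CPM of the cluster, by library, each point 1 library with its exact Poisson 95% interval. Cluster 19 has no cells at 12 and 28 dpa and carries nearly all neutrophil Serpinb1a (346 and 328 CPM), and Serpinb6a and Serpinb8 differ between the macrophage clusters.

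Serpinb9, the inhibitor of granzyme B that protects cytotoxic lymphocytes and dendritic cells, and Serpinb6b, a paralogue of Serpinb6a, were highest on average in T or NK-like cells, although at 12 dpa Serpinb9 was higher in lymphatic endothelial-like cells (26.4 CPM). Serpinb9 was at 51.6 CPM (40.6 to 64.7, 75 UMIs), 12.9 (5.18 to 26.5, 7 UMIs), 125 (96.0 to 159, 64 UMIs) and 109 (69.8 to 162, 24 UMIs), low at 12 dpa and high at 17 and 28 dpa. Its log2 ratios were -1.92 (-3.36 to -0.89) at 12 dpa and 1.26 (0.77 to 1.77) at 17 dpa, from 157 and 117 cells, the latter under 2-fold as a mean over cells (0.88), and the 28 dpa library had 82 cells and was not compared. The target of Serpinb9, Gzmb, was at 180 CPM, 445 and 125 CPM in the unamputated, 12 and 17 dpa libraries of these cells, highest where Serpinb9 was lowest. The other granule genes compared went the other way at 12 dpa: Gzma was at 68.8, 0 and 136 CPM and Prf1 at 46.8, 7.36 and 46.7 CPM in the same libraries. Serpinb6b was at 57.1 CPM (45.5 to 70.8), 35.0 (21.1 to 54.6), 89.6 (65.6 to 120) and 63.6 (34.8 to 107), with intervals that overlapped for every pair of libraries but 12 and 17 dpa. Serpinb1a in T or NK-like cells was at 26.1, 55.2, 62.3 and 63.6 CPM from 38, 30, 32 and 14 UMIs, lowest in the unamputated library. In B-like cells, its highest class at 28 dpa, it was at 71.9, 79.1 and 174 CPM in the unamputated, 17 and 28 dpa libraries. The 28 dpa value came from 98 cells and 38 UMIs. In the vascular endothelial-like cluster 11 Serpinb1a was at 29.3 CPM in the unamputated library and 72.8 CPM at 12 dpa (1.29). In the other such cluster, cluster 5, it was at 24.3 and 32.9 CPM (0.42).

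Over the family, macrophage-like cells had 1 of 4, 1 of 4 and 3 of 5 serpins past 2-fold at 12, 17 and 28 dpa, against 2.86%, 4.9% and 10.1% of all genes. T or NK-like cells had 2 of 5 at 12 dpa and 3 of 5 at 17 dpa, against 17.6% and 14.1%, and dendritic-like cells had 1 of 6 (Serpinb9, lower) and 0 of 5, against 11.5% and 6.22%. In the unnamed cluster 3, myeloid cells led by Acp5 and Clec5a, the counts were 1 of 3 (Serpinh1, higher), 0 of 2 and 6 of 7, against 1.8%, 1.48% and 9.64%. The 6 genes higher there at 28 dpa, from 236 cells, were Serpinh1, Serpinf1, Serpinb1a, Serpinb9, Serpinb9b and Serpinb6a, and fibroblast markers summed to 232, 648, 442 and 707 CPM in its 4 libraries. Neutrophil-like cells had 4 of 4, 0 of 5 and 1 of 3, against 41.1%, 3.7% and 40%. The share over all genes was thus highest in the libraries without cluster 19, and the serpin counts there are read against that.

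Low levels of connective tissue serpins were also counted in classes that are not known to make them, and fibroblast markers in the same cells are given beside them. The 3 serpins past 2-fold in macrophage-like cells at 28 dpa were Serpinb1a, Serpinh1 and Serpinf1. Serpinh1 was at 5.29, 10.9, 8.59 and 11.6 CPM and Serpinf1 at 6.08, 7.66, 13.1 and 13.5 CPM there, while 9 fibroblast markers summed to 242, 753, 520 and 634 CPM in the same cells and to 47135 to 70393 CPM in fibroblast-like cells. In suprabasal keratinocyte-like cells Serpinf1 was at 1.41, 12.1, 6.70 and 9.48 CPM, with 22 of the 39 UMIs at 12 dpa in 1 cell, and the fibroblast markers summed to 163, 996, 686 and 511 CPM. B-like cells at 17 dpa had 3 of 5 serpins past 2-fold (Serpine2, Serpinh1 and Serpinf1, all higher), against 10.2% of all genes. Serpine2 was at 113 CPM (84.9 to 148) there and at 5.23 CPM in the unamputated library. The fibroblast markers summed to 5296 CPM against 621 CPM, with Pi16 the only one of the 9 at 0, and osteoblast markers to 331 against 26.2 CPM. The part of this RNA from other cells in the serpin values was not tested.

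The other 45 members were low or had nearly no counts. The largest totals among them were 1078 UMIs for Serpina3g and 1022 for Serpina1b in kept cells. Serpina1b, one of the mouse alpha-1-antitrypsin genes, was found in 428 cells and was highest in vascular endothelial-like cells, at a mean of 30.3 CPM over libraries. Of the 75-base stretches in the last 500 bases of its longest transcript, 8.45% also occur in Serpina1a, Serpina1c or Serpina1d. Reads from those stretches cannot be assigned to 1 gene. Serpina1b also overlaps Serpina1d on the same strand, so its counts are uncertain. Serpinb6c, with 242 UMIs, was highest in the unnamed cluster 23 (Krt19 and Apod cells), at a mean of 23.7 CPM. Several other clade A genes had fewer counts. Serpina1a had 48 UMIs in 5 cells, Serpina1c and Serpina1e had 2 each, Serpina6 had 1, and Serpina5 and Serpina7 had 0. The Serpinb9 paralogues Serpinb9c to Serpinb9h had 0 or 1 UMI each. Of such 75-base stretches in Serpinb9f and Serpinb9h, 96.0% and 72.8% also occur in other genes. In Serpina1a and Serpina1c the shares were 29.8% and 23.9%. Low counts of these genes cannot be read as silence.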

How the data were processed

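The deposited values were raw UMI counts for each gene in each cell barcode. The file headers and the submitters' processing notes name Cell Ranger 7.1.0, and the notes name the build mm10. The annotation, cell calling, strand and intron counting are not given in the sources used here. Per the labels' protocols, cells were freed with trypsin plus collagenase I, cleared of erythrocytes and sorted live with propidium iodide for 10x 3′ v3 libraries.

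Barcodes under 500 genes, under 1000 UMIs or over 10% mitochondrial UMIs were dropped. The highest Scrublet scores were removed at 0.8% per 1000 barcodes. The 35087 cells were clustered jointly (scanpy 1.11.5, Leiden resolution 1, 2000 variable genes, 30 components, 15 neighbours) without serpin, list, Xist or Y-linked genes, and 30 clusters were named from markers of 27 classes. Named genes reached 50 CPM and 50 UMIs in a class. They are given in their highest class, and values in further classes were picked after they were seen. Members and lists were chosen with earlier results of these data known. Coordinates are from GENCODE M21, which held all 60 IDs. Of the 61 genes of the symbol rule, 1 is not reported here. On counts simulated for fibroblast-like cells with counting error alone, 100% of genes changed by a log2 of 1.5 and 99.0% of those changed by 2 were called, and 0% of unchanged ones; smaller changes were not simulated.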

Additional observations from a re-analysis of the deposited data

Results flagged for a closer look

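For Serpinb1a and Serpinb9 the ratio to the unamputated library went past 2-fold in opposite directions in different cell classes. With 1 library per time none of these differences was tested. The log2 ratio of Serpinb1a at 12 dpa was 1.05 in T or NK-like cells, with an interval of 0.34 to 1.81 from 38 unamputated and 30 12 dpa UMIs, and -5.50 in neutrophil-like cells when their 0 UMIs were set to the floor of 3, without the 1 CPM added to the other ratios. The difference of these unlike values was 6.55, and it depends on that floor. At 28 dpa it was 3.05 in macrophage-like and -4.05 in neutrophil-like cells, a gap of 7.099. The neutrophil values go with cluster 19, which held 521 unamputated cells and none at 12 or 28 dpa. The macrophage value goes with cluster 1, which had 178 unamputated and 1693 28 dpa cells and a ratio of 1.37 on its own. The log2 ratio of Serpinb9 at 17 dpa was 1.26 in T or NK-like cells (0.88 as a mean over cells) and -1.55 in osteoblast-like cells (55 unamputated and 15 17 dpa UMIs), a gap of 2.81.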

How the results depend on the processing

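Of 47 ratios of named genes, 12 were past 2-fold. Their 142 values under the alternatives included 127 still past 2-fold and 0 of opposite sign. Those lost were Serpine2 in osteoblast-like cells at 17 dpa (0.79 with no doublets removed, 0.81 as a mean over cells), Serpinb2 in suprabasal cells at 12 dpa (-0.82 with each cell named alone, -0.95 as a mean over cells) and Serpinb9 in T or NK-like cells at 17 dpa (0.88 as a mean over cells). Serpine2 in vascular endothelial-like cells at 28 dpa was at 0.97 with a looser filter on cells, 0.59 with doublets and 0.99 in male cells. Serpinb1a in macrophage-like cells was at -0.56 to -0.86 under 5 settings at 12 dpa. At 17 dpa it was at 0.78 with Leiden resolution 0.5 and 0.34 in cluster 10 alone, where both levels were under 10 CPM. The cause of these shifts was not tested.

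The counts of serpins past 2-fold are small and moved with the settings. In fibroblast-like cells at 12 dpa the count was 1 in place of 0 with a looser or stricter filter on cells, doublets kept, resolution 2, each cell named alone, a pseudocount of 0.1 CPM or no minimum CPM (5 UMIs), and 2 as a mean over cells. At 17 dpa it was 1 in place of 0 with doublets kept. At 28 dpa it was 1 with a stricter filter, resolution 2, each cell named alone, median-of-ratios scaling or male cells, and 4 with no minimum CPM. In vascular endothelial-like cells at 12 dpa it was 1 in place of 0 with doublets kept, median-of-ratios scaling, a pseudocount of 0.1 CPM or the largest shared cluster. At 17 dpa it was 0 in place of 1 with a looser or stricter filter, doublets kept, a pseudocount of 5 CPM or a minimum of 50 CPM. At 28 dpa it was 1 in place of 3 with a pseudocount of 5 CPM or a minimum of 50 CPM, 6 with no minimum CPM.

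In basal keratinocyte-like cells at 12 dpa the count was 1 in place of 2 with a minimum of 50 CPM and 4 with no minimum CPM. At 17 dpa it was 1 in place of 0 with a stricter filter or doublets kept and 3 with no minimum CPM. At 28 dpa it was 1 in place of 0 with doublets kept, 2 with each cell named alone and 3 with no minimum CPM. In macrophage-like cells at 12 dpa it was 0 in place of 1 with a stricter filter, doublets kept, resolution 2, each cell named alone, a pseudocount of 5 CPM, a minimum of 50 CPM or the largest shared cluster, and 2 with a pseudocount of 0.1 CPM. At 17 dpa it was 2 in place of 1 with a looser filter, resolution 2, a pseudocount of 0.1 CPM or male cells, 3 with doublets kept, and 0 with resolution 0.5 or a minimum of 50 CPM. At 28 dpa it was 5 in place of 3 with doublets kept, 6 with no minimum CPM, and 1 with resolution 0.5, a pseudocount of 5 CPM or a minimum of 50 CPM.

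Male cells alone gave no value at 12 dpa. The stricter filter left too few basal cells at 12 dpa, resolution 0.5 too few macrophage-like cells at 12 dpa, and the largest shared macrophage cluster too few cells at 28 dpa. The largest shared cluster was chosen as a setting after seeing the data, and the other 13 of 14 settings were planned. Depth limits genes under 10 CPM in classes of few cells, where 1 cell can hold much of a count. No paired analysis was possible because each group had 1 library.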
